A study of Mus musculus with 2 samples.

Results

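The 1552 genes typed as small nucleolar RNA (snoRNA) in the mouse GENCODE annotation vM1, of 37310 annotated genes in all, were examined for RNA tags crosslinked to Mbnl2, a muscleblind-like RNA-binding protein. Membership was read from the annotation alone, and a tag was assigned to a snoRNA when it overlapped the locus by at least 1 nt on the strand of the gene. Of the 1552 loci, 175 (11.3%) held at least 1 tag, and 1377 held none. The tagged loci received 144 tags in wild-type (WT) muscle and 400 tags in *Mbnl1* KO muscle.

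Mbnl2 HITS-CLIP, in which RNA fragments crosslinked to a protein by UV light are immunoprecipitated and sequenced, was performed on quadriceps muscle of WT and *Mbnl1*-/- mice, labelled as C57BL/6 and aged 15 to 16 weeks. The study's text names the knockout allele as a deletion of exon 3 of *Mbnl1* and describes a C57BL/129 background for the heterozygotes of its compound crosses, only *Mbnl1* differs between the groups by their labels, and the labels name no treatment. The 3 mice of each genotype were merged by the authors into 1 table, so the spread between mice cannot be seen, no test between genotypes could be made, and every interval below is an exact 95% Clopper-Pearson interval that covers counting error only. The question was how Mbnl2 contacts these RNAs in muscle with and without Mbnl1.

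The WT and *Mbnl1* KO tables hold 343554 and 476543 tags, and each tag collapses 1 or more reads, 5176203 in WT and 50329234 in *Mbnl1* KO. Tags in which a single base makes up at least 70% of the sequence were 44% of the WT table and 17% of the *Mbnl1* KO table. At the *Mbnl1* gene the tables held 100 WT and 452 KO tags, in the exon with its first annotated start codon 5 WT and 2 KO tags, and in the exon with its second 0 WT and 4 KO tags. The sources used here do not place the deleted exon in this annotation, so these counts do not check the genotype labels. Tags of muscle fibre genes were abundant (1008 WT and 3644 KO over 10 genes), whereas 3 leukocyte genes held 9 and 13 tags and 3 Schwann cell genes 6 and 14. Markers of fibroblasts (4 genes, 182 and 792 tags), endothelium (3 genes, 37 and 87) and adipocytes (3 genes, 5 and 35) were also present in the whole muscle, and the part of these cells in the results on snoRNAs was not tested.

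snoRNAs are short, stable RNAs that guide the chemical modification of other RNAs in the nucleolus. C/D box snoRNAs carry a box C near the 5′ end and a box D near the 3′ end, bind fibrillarin, Nop56, Nop58 and the protein encoded by *Nhp2l1*, and direct 2′-O-methylation of ribosomal RNA (rRNA), while H/ACA box snoRNAs bind dyskerin and direct pseudouridylation. A few, among them U3, U8, U14 and U17, are needed for cleavage of the rRNA precursor. Most vertebrate snoRNAs are released from introns of host genes, many of which encode ribosomal proteins or are long non-coding RNAs (lincRNAs). Muscleblind-like proteins prefer the motif YGCY, where Y is C or U, which was searched on the strand of the RNA.

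The 9 loci with at least 10 pooled tags were all C/D box snoRNAs and held 136 of the 544 snoRNA tags (25%). Their sequences are given because they show where in each RNA the tags lay. Each is the mm9 reference, 5′ to 3′ on the strand of the gene, and capitals mark the bases covered by at least 50% of the deepest tag pile in that RNA, both genotypes pooled.
Snord118: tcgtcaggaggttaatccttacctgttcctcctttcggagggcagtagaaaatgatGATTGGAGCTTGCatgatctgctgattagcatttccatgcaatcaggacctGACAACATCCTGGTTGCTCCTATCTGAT
Snord14d: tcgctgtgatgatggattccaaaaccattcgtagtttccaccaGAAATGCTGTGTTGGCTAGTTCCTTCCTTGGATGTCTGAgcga
Snord14c: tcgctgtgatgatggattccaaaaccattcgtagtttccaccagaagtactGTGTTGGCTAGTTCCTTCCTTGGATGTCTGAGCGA
snoU97: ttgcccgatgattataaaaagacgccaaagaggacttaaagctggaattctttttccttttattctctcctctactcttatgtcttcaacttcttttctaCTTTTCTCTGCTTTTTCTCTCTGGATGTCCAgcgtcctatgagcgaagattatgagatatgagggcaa
SNORD50: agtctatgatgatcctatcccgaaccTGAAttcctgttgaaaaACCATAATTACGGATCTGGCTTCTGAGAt
Snord83b: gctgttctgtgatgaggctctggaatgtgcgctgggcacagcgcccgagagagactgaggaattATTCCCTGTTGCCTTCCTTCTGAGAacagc
SNORD59: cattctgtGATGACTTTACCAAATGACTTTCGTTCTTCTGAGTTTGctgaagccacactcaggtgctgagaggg
Snord104: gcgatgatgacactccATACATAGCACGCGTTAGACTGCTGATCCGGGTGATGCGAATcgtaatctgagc
Snord47: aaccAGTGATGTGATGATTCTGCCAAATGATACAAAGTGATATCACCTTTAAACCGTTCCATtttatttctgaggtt

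In mm9, Snord118 lies at chr11:68886929-68887063 on the plus strand, outside other genes. Snord14d (chr9:40612078-40612163) and Snord14c (chr9:40611666-40611751) lie on the plus strand within *Hspa8*, where both overlap annotated exons. snoU97 is at chr7:118219574-118219741 on the minus strand, overlapping an exon of *Eif4g2*. This SNORD50 copy is at chr9:88752531-88752602 on the minus strand in an intron of the lincRNA 9330159M07Rik. Snord83b (chr15:79908928-79909021, minus strand) is in an intron of *Rpl3*. SNORD59 (chr10:127521199-127521272, plus strand) is intronic in *Atp5b* and *Baz2a*, whose annotations overlap there. Snord104 (chr11:106362307-106362376, plus strand) lies outside other genes, and Snord47 (chr1:162968213-162968289, plus strand) overlaps an exon of the lincRNA *Gas5*.

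Capitals sat toward the 3′ end in most of these RNAs. In Snord14d they ran from base 44 to base 82, in Snord14c from 52 to 86, in snoU97 from 101 to 131 and in Snord83b from 65 to 89. SNORD59 was the exception with a pile in its 5′ part, from base 9 to base 46, and in Snord104 (17 to 58) and Snord47 (5 to 62) the capitals spanned most of the RNA.

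Across all snoRNA loci, normalised tags, the number per 1000000 tags of the table, were 419 in WT and 839 in *Mbnl1* KO, a KO/WT ratio of 2 (1.65–2.44). These tags held 13771 reads in WT and 104843 reads in KO. Scaled to the reads of the tables, this is a KO/WT ratio of 0.783, the opposite direction to that in tags. Without the locus Snord4a, left out after seeing the data, the ratio in reads was 2.95. Of the tagged loci, 93 held WT tags, 132 held KO tags and 50 held both. Most loci were thinly covered: 72 had 1 tag, 94 had 2 to 9 tags and 34 had at least 5.

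Ratios above 1 were also found at other RNA classes. Spliceosomal small nuclear RNA (snRNA) genes had 305 WT and 636 KO tags (ratio 1.50, 1.31–1.73), microRNA (miRNA) genes 122 and 412 (2.43, 1.98–3), and exons of protein-coding genes 21372 and 82186 (2.77, 2.73–2.81). The interval for snoRNAs thus overlapped those of snRNAs and miRNAs and lay below that of exons. With single-base tags removed from loci and totals, snoRNA loci kept 138 WT and 397 KO tags, and the ratio was 1.42 (1.16–1.73), beside 1.03 (0.895–1.18) for snRNAs, 1.71 (1.39–2.12) for miRNAs and 1.96 (1.93–1.99) for exons. With 1-read tags also left out, a setting chosen after seeing the data, the snoRNA ratio was 1.2 (0.919–1.58), an interval that includes 1. Unless stated otherwise, ratios below are scaled to the whole tables, single-base tags included.

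**Figure D1:**
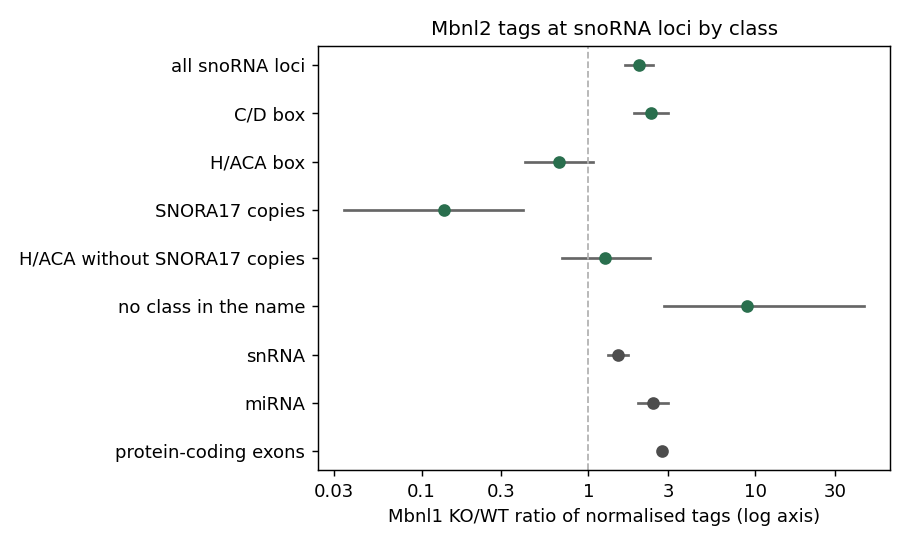
The *Mbnl1* KO/WT ratio of normalised tags is shown on a log axis for snoRNA groups (green) and for snRNA, miRNA and protein-coding exons (grey), where points are ratios, lines are 95% counting intervals and the dashed line marks a ratio of 1. C/D box snoRNAs lie at 2.37, H/ACA box snoRNAs at 0.667, and the SNORA17 copies stand apart from the other H/ACA loci.

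C/D box snoRNAs carried most of the signal. Of 440 C/D loci, 104 (23.6%) were tagged, with 98 WT and 322 KO tags, or 285 and 676 normalised tags, for a ratio of 2.37 (1.88–3). Without single-base tags it was 1.61 (1.28–2.04), and with 1-read tags also left out, a setting chosen after seeing the data, 1.32 (0.978–1.82), an interval that includes 1. They made up 68.1% (59.8–75.6) of WT and 80.5% (76.3–84.3) of KO snoRNA tags. Per annotated length they held 10.7 pooled tags per kb, against 0.582 per kb at H/ACA loci and 0.945 per kb at the H/ACA loci other than SNORA17 copies (52 tags). Within this class the ratios of curated and family names lay within each other's intervals: 64 loci with a Snord symbol had 42 WT and 142 KO tags (2.44, 1.72–3.53), and 376 C/D loci with another name had 56 and 180 (2.32, 1.71–3.19), although 60.9% of the former and 17.3% of the latter were tagged.

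H/ACA box snoRNAs had a lower ratio. Of 1032 loci, 54 (5.23%) were tagged, with 40 WT and 37 KO tags (ratio 0.667, 0.415–1.07), an interval that lay wholly below that of the C/D class and included 1. It excluded 1 without single-base tags (0.492, 0.299–0.809) and with tags of at least 2 reads (0.350, 0.161–0.756). H/ACA tags were 27.8% (20.6–35.8) of WT and 9.25% (6.6–12.5) of KO snoRNA tags.

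With all tags counted and scaled to the whole tables, the H/ACA value rested largely on 1 repeated family. SNORA17 alone has 611 annotated copies, of which 24 were tagged, with 21 WT and 4 KO tags (ratio 0.137, 0.0343–0.407; 0.0777, 0.0147–0.264, without single-base tags). The other 421 H/ACA loci held 19 WT and 33 KO tags (1.25, 0.691–2.33), an interval that overlaps that of the C/D class. The 34 loci with a Snora symbol held 8 and 14 (1.26, 0.494–3.47). This division was made after the counts were seen. Both groups still include Snora17 in *Snhg7*, with 1 WT tag of 23 nt and no KO tag. Their ratios were not computed without single-base tags or with tags of at least 2 reads. Of the 25 tags at SNORA17 copies, 20 had 1 read and so are absent from the latter setting. Of the 21 WT tags at SNORA17 copies, 14 were 23 nt long and began at base 19 to 22 of 14 different copies, and 12 of those 14 had 1 read. A single 23-nt sequence, which occurs 30 times in the genome, accounted for 8 of them. No KO tag at a SNORA17 copy had that length and start. A tag that matches several places cannot be assigned to a particular copy, and 6 of the 21 WT tags also reached outside the annotated RNA.

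The most tagged H/ACA loci were Snora31, in an intron of *Tpt1*, with 4 WT and 2 KO tags, and a SNORA65 copy on chromosome 14 with 5 WT tags and no KO tag, none of which lay within the annotated RNA and only 2 of which were not single-base tags. Small Cajal body RNAs, which guide modification of snRNAs, held few tags, with 4 of 43 loci tagged by 3 WT and 4 KO tags. The 37 loci whose names give no class had 3 WT and 37 KO tags over 13 loci (8.89, 2.82–45.1). Among them AC087117.1, in *1110038B12Rik*, had 1 WT and 5 KO tags, AC087117.2 in the same host had 0 and 5, and AC102570.1 had 1 and 5.

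The 9 loci with at least 10 tags could be described one by one. Snord118, which encodes U8 and is needed for maturation of the large-subunit rRNAs, had the most, with 4 WT and 21 KO tags, or 11.6 and 44.1 normalised tags (ratio 3.78, 1.28–15.2). Snord14d, a copy of U14, which serves small-subunit rRNA processing, had 2 WT and 22 KO tags (7.93, 1.95–69.6), and its neighbour Snord14c 1 and 15 (10.8, 1.66–455). For these 3 loci the intervals lay above 1. With single-base tags left out of loci and totals, a setting added after seeing the data, the ratios were 2.58 (0.871–10.3), 5.41 (1.33–47.5) and 7.38 (1.14–311), so that the interval of Snord118 included 1.

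The SNORD50 copy in 9330159M07Rik had 1 WT and 12 KO tags (8.65, 1.28–370). Snord104 had 1 and 9 (6.49, 0.899–284), and Snord47 had 2 and 8 (2.88, 0.575–27.9). These are guides for methylation of large-subunit rRNA. Of the 3, only SNORD50 had an interval that excluded 1, and without single-base tags it did not (5.90, 0.873–252).

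The loci with the lowest ratios were SNORD59, Snord83b and snoU97. SNORD59, a guide for small-subunit rRNA, was the only one of the 9 with more WT than KO tags, 8 against 3 (0.270, 0.0462–1.13). Snord83b had 4 and 9 (1.62, 0.453–7.21) and snoU97 had 4 and 10 (1.80, 0.520–7.87). None of these 3 intervals excluded 1, but without single-base tags that of SNORD59 did (0.184, 0.0315–0.769).

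Of the 9 loci, 6 had a ratio of at least 2, where 39.6% of the 7206 annotated genes with at least 10 pooled tags did, and 1 had a ratio of 0.5 or less, where 6.95% of those genes did. Apart from SNORD59, with 8 WT and 3 KO tags, these loci reached the minimum of 10 tags mainly through KO tags. Snord14c and Snord14d also share sequence, so these counts describe the 9 loci and nothing is read from them.

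**Figure D2:**
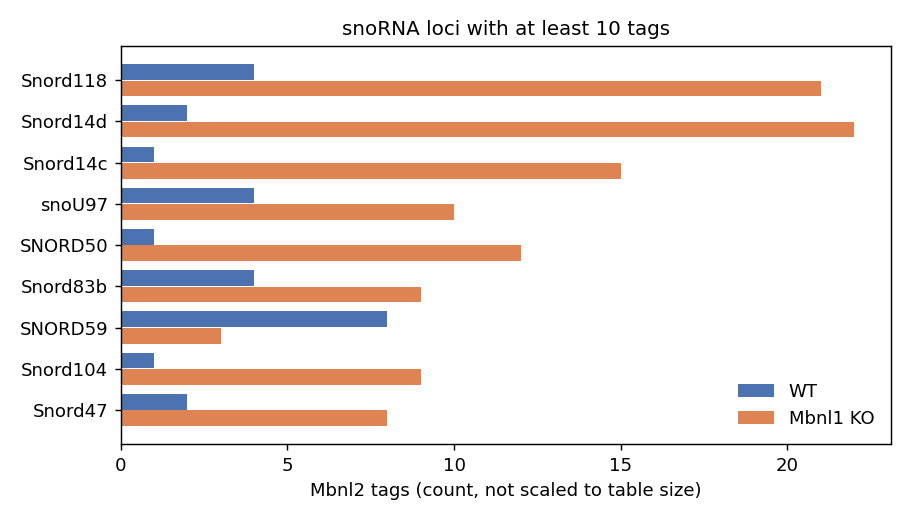
Bars give the number of WT (blue) and *Mbnl1* KO (orange) Mbnl2 tags at each snoRNA locus with at least 10 pooled tags, not scaled to table size (343554 WT and 476543 KO tags). SNORD59 alone has more WT than KO tags, 8 against 3.

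Below this minimum single loci held more tags of either genotype, with wide error. SNORD36 in *Rpl7a* had no WT tag and 9 KO tags with 4192 reads, and the lower limit of the interval of its ratio was 1.42. This limit was not recomputed without single-base tags, a setting that lowers the factor applied to KO counts from 0.721 to 0.492. SNORD75 and SNORD81 in *Gas5* and the SNORD50 copy with 12301 KO reads in *Snhg5* each had 1 WT and 8 KO tags (5.77, 0.773–256). SNORD30 in *Snhg1* had 1 and 7 (5.05, 0.648–227). In the other direction, SNORD95 in *Gnb2l1* had 4 and 1 (0.180, 0.00366–1.82) and Snord98 in *Ccar1* 3 and 1 (0.240, 0.00458–2.99), and neither interval excluded 1, while the SNORA65 copy described above had 5 and 0, with an upper limit of 0.787.

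Among the snoRNAs needed for rRNA precursor cleavage, U14 was the most heavily tagged, with 5 WT and 39 KO tags over 4 copies, all tagged (ratio 5.62, 2.21–18.3). U8 had 8 and 24 over 2 of 5 copies (2.16, 0.940–5.57), since a second copy on chromosome 12 had 4 WT and 3 KO tags, all 7 of them in sequence shared with another site. U3, an abundant snoRNA, had 2 WT and 16 KO tags over 10 of 47 copies (5.77, 1.36–51.7), and 16 of the 18 lay in sequence with more than 1 genome copy. Without single-base tags the ratio was 3.84 (1.51–12.5) for U14 and 3.69 (0.858–33.3) for U3. U17, an H/ACA RNA, had 1 tag in each genotype over 15 loci. U13, which has 26 annotated loci, had no tag in either table.

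The imprinted, brain-enriched families gave no tags. None of 137 Snord115, 27 Snord116 and 22 Snord113 loci was tagged, and a count of 0 allows up to 8.73 normalised tags in WT and 6.3 in *Mbnl1* KO for each family.

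Copies within a family could not be fully separated. Snord14c and Snord14d are both 86 nt and differ at 2 positions (97.7% identity), and of the 44 U14 tags 25 lay in sequence with more than 1 genome copy. The 5 SNORD50 copies, each 72 nt, differ from one another at 0 to 2 positions, and 36 of their 37 tags (4 WT, 33 KO, ratio 5.95, 2.12–23.1) matched more than 1 place. Over all snoRNA tags 71.5% had 1 genome copy, and with these alone the C/D ratio was 2.16 (1.66–2.84).

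Host genes brought several tagged snoRNAs together. *Gas5*, a lincRNA whose introns yield C/D snoRNAs, had 7 of 9 snoRNAs tagged, with 10 WT and 34 KO tags (2.45, 1.18–5.56). *Snhg1* had 6 of 8 tagged with 5 and 24 (3.46, 1.29–11.6). The 3 snoRNAs of *Hspa8*, the constitutive heat shock cognate, had 5 and 38 (5.48, 2.15–17.8). Without single-base tags the intervals of *Gas5* (1.67, 0.808–3.8) and *Snhg1* (2.36, 0.883–7.92) included 1 and that of *Hspa8* (3.74, 1.47–12.2) did not. The rest of the host transcript held few tags in these 3 genes: outside the snoRNAs *Gas5* had no tag in either table, *Snhg1* had 0 WT and 1 KO, and *Hspa8* had 0 and 11.

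Ribosomal protein genes were among the other hosts. *Rps12* had 3 WT and 9 KO tags over 2 of its 3 snoRNAs (2.16, 0.54–12.4) and none elsewhere in the gene, *Rpl7a* had 2 and 9 over 2 of 4 (3.24, 0.671–30.9) and none elsewhere, and *Rpl13a* had 1 and 10 over 4 of 4 (7.21, 1.03–313), beside 4 WT and 14 KO tags elsewhere in the gene. Of these 3 intervals only that of *Rpl13a* excluded 1, with a lower limit of 1.03. It was not recomputed without single-base tags, where the factor that scales KO to WT counts is 0.492 in place of 0.721. The snoRNAs of *Snhg5* had 2 and 11 tags (3.97, 0.865–36.8), those in *Atp5b* and *Baz2a* had 8 and 7 tags (0.631, 0.195–1.99), that in *Eif4g2* 4 and 10 (1.80, 0.520–7.87) and those in *Gnb2l1* 5 and 3 (0.433, 0.0672–2.22). The rest of the last 3 hosts held 13 WT and 60 KO, 24 and 99, and 1 and 5 tags. Over all hosts, 58 snoRNAs in lincRNAs had 24 WT and 100 KO tags (3, 1.91–4.91), and 367 in protein-coding genes 75 and 224 (2.15, 1.65–2.84), intervals that overlapped.

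By position in the annotation, 22% of the 346 purely intronic loci were tagged, with 53 WT and 154 KO tags (2.09, 1.52–2.92). Of the 96 that overlapped an exon of another gene 54.2% were tagged, with 48 and 181 (2.72, 1.97–3.82). Of the 1110 loci outside other genes, a group that includes 575 of the 611 SNORA17 copies, 4.23% were tagged, with 43 and 65 (1.09, 0.730–1.64).

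At the loci that could be compared with a flank, tags were concentrated on the snoRNA and not on the surrounding RNA. These loci held 67 of 144 WT and 156 of 400 KO snoRNA tags. Loci that overlap an exon gave few of them: without those loci 66 and 154 remained. In all, such loci held 48 WT and 181 KO tags, most of which were thus not compared with a flank. At the 1410 loci with at least 1 flanking window of the same length, 100 nt away and free of exons and other small RNAs, WT tags numbered 67 over 167873 nt of snoRNA and 18 over 324060 nt of flank, a density ratio of 7.19 (4.22–12.9). In *Mbnl1* KO there were 156 and 21 (14.3, 9.06–23.8). For C/D loci the density ratio was 10.2 (3.88–34) in WT and 23.9 (11.7–56.8) in KO, and for H/ACA loci 5.68 (2.88–12) and 6.27 (2.89–15.1). The intervals of the genotypes overlapped in each case. With flanks 30 nt away, over the loci of all classes that had such a window, they did not overlap. The ratios were then 4.81 (3.08–7.68) in WT and 12.6 (8.34–19.6) in KO, from 72 and 175 tags on the snoRNAs.

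Most tags lay within the annotated RNA. Of 544 tags, 85.8% lay entirely within the annotated snoRNA and 95.8% within 3 nt of it, the latter 90.3% (84.2–94.6) in WT and 97.8% (95.8–99) in KO. Antisense tags were 5.26% (2.3–10.1) of tags at snoRNA loci in WT and 1.23% (0.402–2.86) in KO, beside 0.974% and 0.935% at snRNA genes, 9.63% and 10.4% at miRNA genes, 16.2% and 6.65% at exons of protein-coding genes and 43.9% and 27.3% over these whole genes.

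Within C/D box snoRNAs, tags in *Mbnl1* KO lay further toward the 3′ end than in WT. The midpoint fell past the middle of the RNA for 39.8% (30–50.2) of 98 WT tags and for 61.5% (55.9–66.8) of 322 KO tags. With the RNA divided into 5 equal parts from its 5′ end, part 2 held the most WT tags, 34.7%, and part 4 the most KO tags, 33.5%, where WT had 13.3%. A 3′ end within 3 nt of the end of the RNA was found in 15.3% (8.83–24) of WT and 27% (22.2–32.2) of KO tags, intervals that overlapped. With tags of at least 2 reads it was 24.5% (13.8–38.3) and 26.3% (20.7–32.6), and without Snord118, Snord14 and SNORD50 it was 15.3% (8.4–24.7) and 20.1% (15.1–25.9).

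The share was higher in KO than in WT in each subset of C/D tags examined after the values were seen, but the intervals of the genotypes did not always separate. At the 42 C/D loci with tags of both genotypes the mean over loci was 43.1% in WT and 63.1% in KO, and with tags of 1 genome copy the values were 39.5% (28.4–51.4) and 62.3% (55.6–68.6). It was 23.8% (12.1–39.5) against 53.9% (46.3–61.4) among tags of at least 30 nt. In these subsets with intervals the genotypes did not overlap. They overlapped with each distinct position counted once, 42.9% (32.1–54.1) and 60.1% (53.4–66.5), among tags under 30 nt, 51.8% (38–65.3) and 70.8% (62.7–78.1), with tags of at least 2 reads, 50.9% (36.8–64.9) and 62.1% (55.3–68.4), and without Snord118, Snord14 and SNORD50, 41.2% (30.6–52.4) and 57.2% (50.5–63.7).

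H/ACA tags had their midpoint past the middle of the RNA in 25% (12.7–41.2) in WT and 59.5% (42.1–75.2) in KO. The intervals overlapped with each distinct position counted once, 25.6% (13–42.1) and 50% (30.6–69.4). They also overlapped with tags of 1 genome copy, 31.8% (13.9–54.9) and 47.6% (25.7–70.2). At the 4 H/ACA loci with tags of both genotypes, which held only 7 WT and 5 KO tags, the mean was 50% in WT and 25% in KO. There the order of the genotypes was the opposite. The 14 WT tags at SNORA17 copies described above begin within the first 22 bases.

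**Figure D3:**
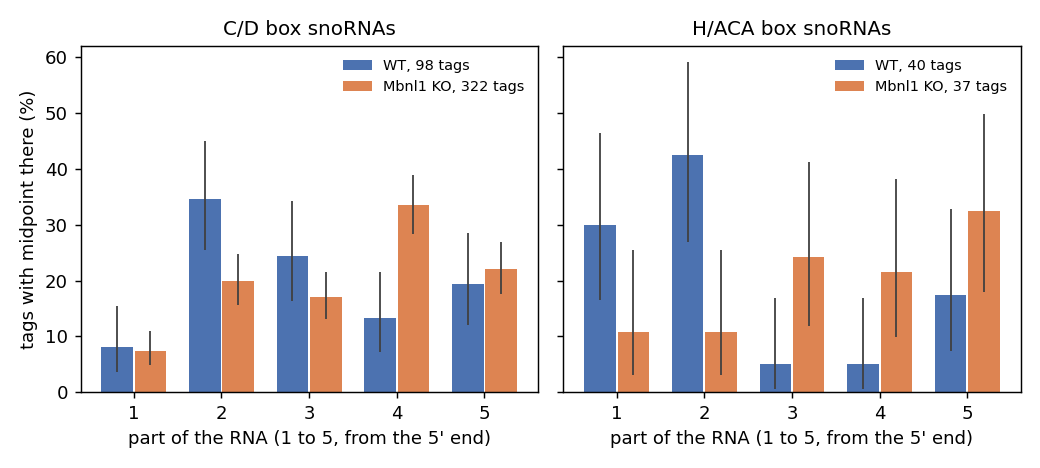
The percentage of tags whose midpoint falls in each of 5 equal parts of the RNA, counted from the 5′ end, is shown for C/D box (left) and H/ACA box (right) snoRNAs in WT (blue) and *Mbnl1* KO (orange), with 95% exact binomial intervals as error bars. In C/D box snoRNAs part 4 holds 33.5% of KO and 13.3% of WT tags.

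Box D in both genotypes, and box C in WT, were covered more often than placement of tags at every possible position in the same RNAs would give. In the 271 tags on C/D RNAs that hold both TGATGA (box C) within 15 nt of the 5′ end and CTGA (box D) within 14 nt of the 3′ end, on the RNA strand, CTGA was fully covered in 24.6% (15.1–36.5) of WT and 37.6% (30.9–44.7) of KO tags, where even placement gave 11.9% and 11.5%. TGATGA was covered in 29% (18.7–41.2) of WT and 19.3% (14.1–25.4) of KO tags, where even placement gave 16.3% and 16.1%, the latter within the KO interval. Both boxes were found in 58.7% of the 104 tagged and 55.4% of the 336 untagged C/D loci. The trinucleotide ACA stood in the last 6 bases of 75.9% of the 54 tagged and 61.9% of the 978 untagged H/ACA loci.

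Coverage along single RNAs showed recurrent ends. In Snord118, of 135 nt, 11 of 25 tags, all from *Mbnl1* KO, ended within 3 nt of the 3′ end of the RNA, and 8 of them ended at base 136, 1 base past the annotated end, with 4 different starts. They covered the last stretch of capitals in the sequence above. The KO pile there reached 14 tags. Of the 4 WT tags, 3 formed a pile at base 57, and the fourth ran from base 91 to base 121, into the same stretch.

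In Snord83b, 8 of 13 tags ended at base 89, of which 2 were WT and 6 KO, and box D begins at base 84. All 4 WT tags and 8 of 9 KO tags lay past the middle, in the same stretch. In the SNORD50 copy 7 of 13 tags, all KO, ended at base 71 of 72, and box D begins at base 66. In snoU97, of 168 nt, all 4 WT and 8 of 10 KO tags lay past the middle of the RNA, where the capitals stand above.

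In Snord14d, 19 of 22 KO tags and 1 of 2 WT tags lay past the middle, and 13 of the KO tags were 31 nt long. In Snord14c it was 12 of 15 KO tags and the single WT tag. SNORD59 differed, with none of 8 WT tags and 1 of 3 KO tags past the middle, and with 7 of its 8 WT tags 31 nt long. Only 3 positions in all snoRNAs held 4 tags with identical ends: bases 47 to 71 of the SNORD50 copy (0 WT, 4 KO), 44 to 74 of Snord14d (0 WT, 4 KO) and 65 to 89 of Snord83b (2 WT, 2 KO).

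**Figure D4:**
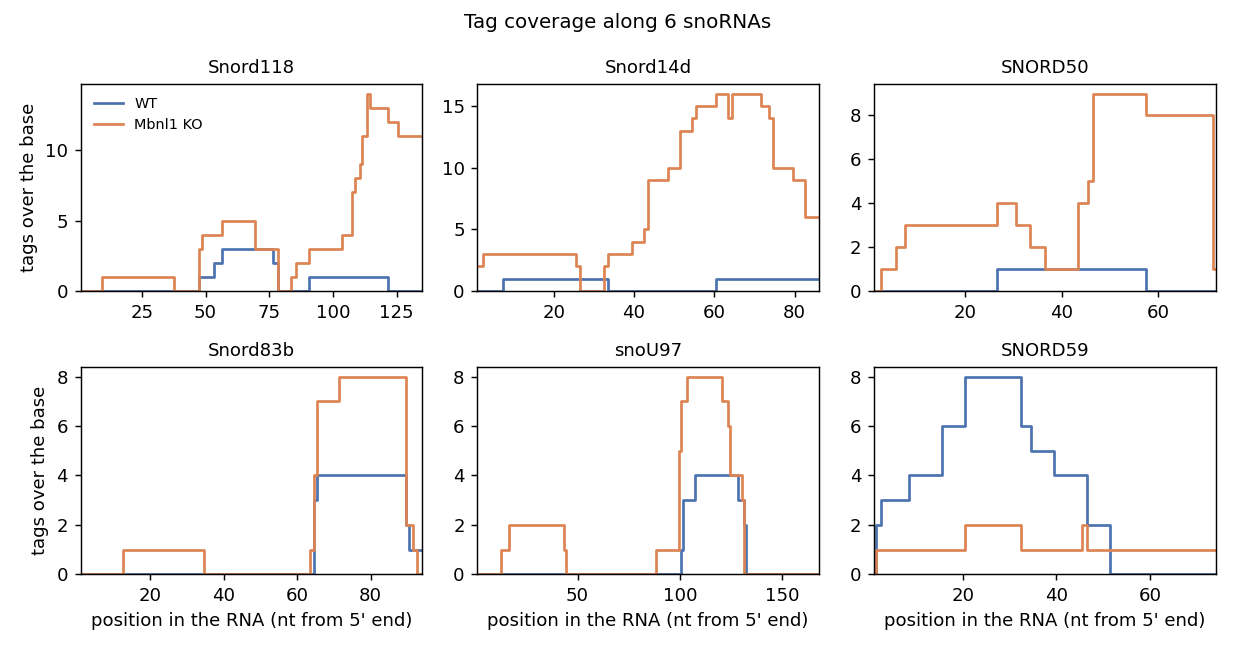
The number of tags over each base is plotted against position in the RNA, in nt from its 5′ end, for 6 snoRNAs in WT (blue) and *Mbnl1* KO (orange), each with its own vertical scale. Snord118, Snord14d and SNORD50 have a KO pile toward the 3′ end with depths of 14, 16 and 9 tags, Snord83b and snoU97 have piles of both genotypes at the same place, and SNORD59 has a WT pile of 8 tags nearer its 5′ end.

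Tags on snoRNAs were longer than tags in general. A length of 31 nt was found in 38.9% (30.9–47.4) of WT and 53.5% (48.5–58.5) of KO snoRNA tags, against 7.16% and 22.1% of all tags that were not single-base. Without single-base tags, the share at 31 nt was 37.7% (29.6–46.3) in WT and 53.9% (48.9–58.9) in KO at snoRNA loci, 10.6% (7.34–14.6) and 30.3% (26.8–34.1) at snRNA genes, 10.3% (5.46–17.4) and 30.9% (26.5–35.7) at miRNA genes, and 17.6% and 38.4% at exons. The snoRNA interval lay above each of these in both tables. No tag in either table was longer than 33 nt, so a longer fragment would not be seen at its own length.

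A second group of WT tags was 23 nt long, 20.8% of WT snoRNA tags, and 14 of these 30 tags were the tags at SNORA17 copies. Median lengths were 25.5 nt in WT and 31 nt in KO for C/D tags, and 23 nt and 31 nt for H/ACA tags. Tags with 1 read were 51.4% (42.9–59.8) of WT and 33% (28.4–37.8) of KO snoRNA tags.

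**Figure D5:**
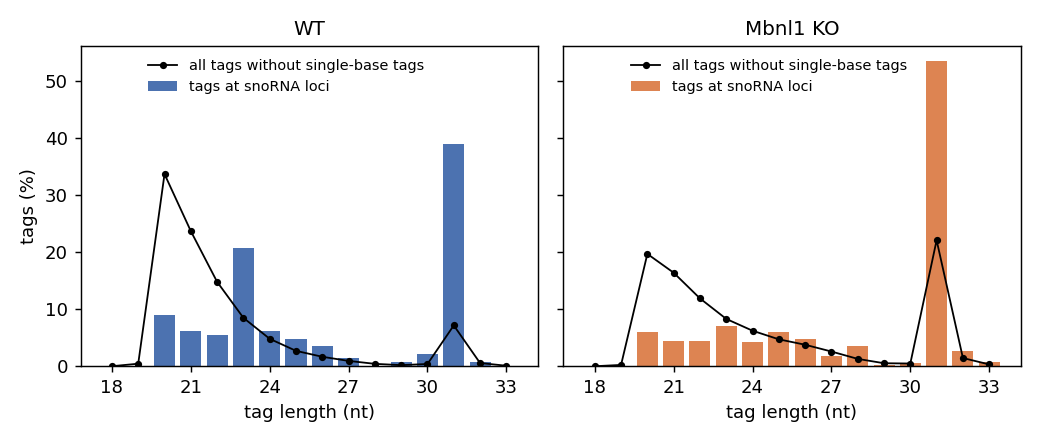
Bars show the percentage of snoRNA tags at each tag length in nt for WT (left) and *Mbnl1* KO (right), and the black line shows all tags of that table other than single-base tags. The bar at 31 nt reaches 38.9% in WT and 53.5% in KO, where the line is at 7.16% and 22.1%.

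The muscleblind motif YGCY was less frequent in these tags than in exon tags, but in WT the interval included the share in all tags that were not single-base. Among tags that were not single-base, it was present in 39.9% (31.6–48.5) of WT and 28.5% (24.1–33.2) of KO snoRNA tags, in 55.4% (54.7–56.1) and 56.7% (56.4–57.1) of exon tags, in 5.61% (3.3–8.83) and 12.3% (9.86–15.1) of snRNA tags, and in 35.2% and 47.3% of all those tags. In miRNA tags it was present in 19.8% (13–28.3) and 24.5% (20.4–29), the latter overlapping the KO snoRNA interval. At the single length of 31 nt it was present in 44.2% (30.5–58.7) of 52 WT and 27.6% (21.7–34.1) of 214 KO snoRNA tags, against 54.7% and 57.9% of exon tags, the former within the WT interval. At 31 nt the values were 31.2% (16.1–50) of 32 WT and 24.5% (18.6–31.2) of 192 KO snRNA tags. For miRNA tags they were 50% (21.1–78.9) of 12 and 40% (31.3–49.1) of 125. These intervals all overlapped those of snoRNA tags. In C/D RNAs with tags, bases under tags held 1.10 motifs per 100 nt and the other bases of the same RNAs 1.47, while in H/ACA RNAs the values were 2.43 and 1.99. The 9 sequences above hold between 0 motifs (SNORD50) and 3 (snoU97 and Snord83b), of which at most 1 in each RNA lies within capitals.

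RNase A, used to trim the RNA, cuts after pyrimidines. The base before the 5′ end of the tag was a pyrimidine in 64.6% (56.2–72.4) of WT and 67.8% (62.9–72.3) of KO snoRNA tags, and in 53% and 64.5% of all tags that were not single-base. The last base of the tag was a pyrimidine in 58.3% (49.8–66.5) of WT and 49.5% (44.5–54.5) of KO snoRNA tags, against 56.6% and 62.1% of all those tags, so that in KO the snoRNA tags lay below the others. Neither comparison was matched for tag length. In KO a length of 31 nt was found in 53.5% of snoRNA tags and 22.1% of all those tags. The part of length in these differences was not tested.

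Reads were far less evenly spread than tags. In WT, 1 tag at Snord4a, a C/D snoRNA in an intron of *Rpl23a*, held 10110 of the 13771 snoRNA reads (73.4%), and the 5 largest tags held 86%. In *Mbnl1* KO the 5 largest tags held 51.7% of 104843 reads, led by snoU54 with 11890, SNORD101 with 11499 and Snord65 with 11223. Counted in reads the KO/WT ratio was 0.783, the opposite direction to that in tags, and without Snord4a it was 2.95.

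The genes for snoRNA-binding proteins were tagged little. The 4 C/D core proteins had 8 WT and 15 KO tags (1.35, 0.538–3.68), mostly on *Nop58* (5 and 12), and 1 of its WT and 6 of its KO tags lay on the 4 snoRNAs it hosts. The 4 H/ACA core genes had 11 and 2 tags (0.131, 0.0141–0.601), all on *Dkc1*, which encodes dyskerin. The 9 assembly factor genes had 23 and 30 (0.94, 0.528–1.7), of which *Shq1* had 10 and 18 and *Coil* 4 and 0. Of these 17 genes, 3 reached 10 pooled tags, 1 of them (*Dkc1*) with a ratio of 0.5 or less, as 6.95% of all 7206 genes had, and none with a ratio of at least 2, as 39.6% of those genes had.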

How the data were processed

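Mbnl2 HITS-CLIP tags were taken from 1 merged table each of 3 WT and 3 *Mbnl1* KO mice. Per the study's methods the authors dropped low-quality reads, mapped the others with BWA (version not given in the sources used here) to the mm9 genome, discarded short sequences and removed probable PCR duplicates. The deposited tables give with every tag a raw count of the reads it stands for, and the authors applied no scaling. Both RNase A concentrations are mixed in each table without a mark.

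Tags were counted on the strand of each snoRNA gene of the mm9 GENCODE annotation vM1 in Python 3.11.15 (scipy 1.17.1, pandas 2.3.3, numpy 2.4.6), and figures were drawn with matplotlib 3.10.9. Of all tags, 810269 lay on sequences of the reference and 9828 on sequences under names that it does not hold. Counts were divided by the total of the table, and ratios have exact 95% intervals for counting error. PCR reads without molecular identifiers are not independent molecules. Counting and intervals were tested on simulated data. Class was read from the gene name. The sequence of each tag was matched to both strands of the genome to count its perfect copies.

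The members, the gene lists and the rules were chosen with earlier results of these data known. Loci with at least 10 pooled tags (at most 25) were named, with the 3 highest and 3 lowest ratios, the snoRNAs of rRNA precursor cleavage and the imprinted families. Ratios of at least 2 or at most 0.5 were counted. Genes were compared by these values alone, since 1 table per genotype allows no test.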

Additional observations from a re-analysis of the deposited data

How the results depend on the processing

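The KO/WT ratio of all snoRNA loci stayed above 1 in 11 of 12 settings and that of C/D loci in 11 of 12, and the exception in both was counting reads in place of tags (0.783 and 0.762). In that setting 1 WT tag at Snord4a held 73.4% of the WT reads, and without Snord4a, chosen after seeing the data, the ratios were 2.95 and 3.18. For all loci the ratio was 2.78 with raw tag counts, 1.42 without single-base tags, 1.43 with tags of at least 2 reads and 1.64 without loci that overlap an exon. For C/D loci it was 3.29 with raw tag counts, 1.61 without single-base tags and 1.58 with tags of at least 2 reads. The H/ACA ratio stayed below 1 in the 11 settings that could move it (0.35 to 0.925; leaving out Snord118 removes no H/ACA tag), and was 0.35 with tags of at least 2 reads. Of settings added after seeing the data, leaving out single-base tags together with 1-read tags gave 1.2 for all loci (0.919–1.58), 1.32 for C/D (0.978–1.82) and 0.294 for H/ACA, the first 2 with intervals that include 1. Collapsing tags of the same reference sequence gave 1.64 for all loci and 1.84 for C/D. Leaving out SNORA17 copies, with all other tags counted, turned the H/ACA ratio to 1.25 (0.691–2.33).

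The density ratio of locus to flank stayed above 1 in all 11 settings of each genotype, and with flanks 30 nt away the intervals of the genotypes no longer overlapped (4.81, 3.08–7.68, in WT and 12.6, 8.34–19.6, in KO). It rose to 243 in KO and 375 in WT with reads (243 and 26.5 without Snord4a), to 31.5 and 27 with tags of at least 2 reads, and to 37.8 and 27 when single-base tags were also left out. The share of C/D tags past the middle of the RNA was 51.8% in WT and 70.8% in KO for tags under 30 nt, 23.8% and 53.9% for tags of at least 30 nt, 50.9% in WT with tags of at least 2 reads, and 68.2% in KO at loci with tags of both genotypes. The share of C/D tags of 31 nt was 28.3% in WT with tags of at least 2 reads and 58.8% in KO with tags of 1 genome copy. The cause of these shifts was not tested. Leaving out 1 mouse was not possible, since the mice are merged. No paired analysis was possible because the mice are merged in 1 table per genotype. With 98 WT tags at C/D loci and 40 at H/ACA loci, counting error limits every comparison.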
